A study of Mus musculus with 7 samples.

Results

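The insulin-like growth factor (IGF) axis was examined here as 10 genes, Igf1, Igf1r, Igf2r, Insr, Irs1, Irs2, Igfbp3, Igfbp4, Igfbp5 and Pappa, out of the 21755 protein-coding genes on the mouse autosomes and X chromosome. The genes were chosen by name, with earlier results of these data known. Each was read over its GENCODE gene body on mm10 and 50 kb to each side, a neighbourhood of 108 to 381 kb and 1.96 Mb for all 10. The question was where estrogen receptor β (ERβ, encoded by Esr2) occupied chromatin around these genes in the ovary.

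The data were ChIP-seq of whole ovary from female C57BL/6J mice that express their own ERβ, with no transgene or treatment, using the mouse monoclonal antibody PPZ0506. There were 3 ERβ ChIP replicates and 2 inputs, which are cross-linked and sheared chromatin sequenced without immunoprecipitation. Per the study's methods each ChIP replicate was made from pooled ovaries of several young to adult mice that were not staged for the estrous cycle. ChIP from ovaries with deleted ERβ was not analysed here. The ovary holds granulosa, theca, luteal, stromal and other cells, so a larger share of cells with an occupied site and more occupancy per cell cannot be told apart. ChIP-seq tracks hold no transcript level by which the tissue label could be checked.

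In the IGF axis, the ligand IGF1 binds the receptor tyrosine kinase encoded by Igf1r, and the docking proteins IRS1 and IRS2 carry the signal to phosphatidylinositol 3-kinase and AKT. The insulin receptor (Insr) uses the same docking proteins, and the Igf2r product clears IGF2. IGF-binding proteins (Igfbp3, Igfbp4 and Igfbp5) hold the ligands in the extracellular fluid, and the protease pappalysin 1 (Pappa) cleaves some of them. In the rodent ovary, IGF1 from granulosa cells enhances the response of follicles to follicle-stimulating hormone. ERβ binds DNA as a dimer at the estrogen response element (ERE), an inverted repeat of GGTCA and TGACC separated by 3 bases.

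A site was a set of 200-bp windows in which at least 2 of 3 ChIP libraries were over 4 times the mean of the 2 inputs. ERβ sites were found by this rule at 4 of the 10 genes, and 5 of the 8 sites lay within Igf1r. Irs1, Irs2 and Igf1 had 1 site each, while Igf2r, Insr, Igfbp3, Igfbp4, Igfbp5 and Pappa had none. Over all protein-coding genes read the same way, 27.5% had at least 1 site. The neighbourhoods of the 10 genes held 4.09 sites per Mb, beside 1.89 per Mb of sequenced genome (4841 sites). Without Igf1r, the other 9 genes held 3 sites, or 1.90 per Mb. The genome density includes sequence far from genes, and the 27.5% was not matched for gene length. No site of the 10 genes overlapped a promoter, and 7 of the 8 lay in an intron of the gene in question. Of these 7, 5 were those of Igf1r. The promoter and intron shares over all sites were not counted, so these counts only describe the 8 sites.

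The sequences below show the best ERE-like stretch in the 6 sites that held an ERE differing at 2 or fewer of the 10 specified bases. They show how close the letters in the occupied windows come to the receptor's known element. Binding at these bases was not tested. They are the plus strand of mm10 (RefSeq GRCm38.p6), with the 13 bases compared with the ERE in capitals and 8 bases to each side in lower case. In Igf1r sites 2 and 3 the element had 1 mismatch, and in the other 4 it had 2. The capitals of Igf1r site 2 cover chr7:68023961-68023973, and those of Igf1r site 3 cover chr7:68041620-68041632. Those of the Irs1 and Irs2 sites cover chr1:82284156-82284168 and chr8:10940144-10940156.
Igf1r site 1: tgtcagtaGGTTAAAAAGACCttgtccag
Igf1r site 2: ctgtgtgtGGTCTTAGTGACCtctcagct
Igf1r site 3: ctgctttgGGTCACTCTGACAtttaatca
Igf1r site 5: agaacacaGAACAACCTGACCcgtagaat
Irs1 site: tagttggaGGTGACCCTGACAtgcatcag
Irs2 site: gaccttcaGGTCATGCAGTCCccatgggg

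**Figure D1:**
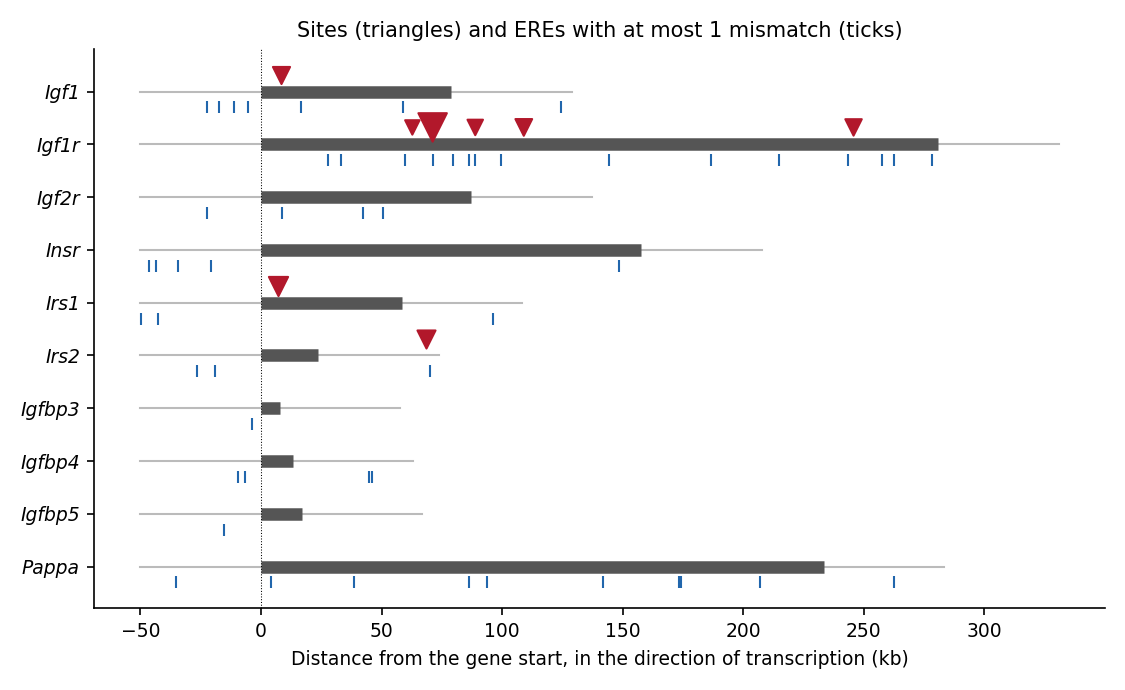
The 10 genes are drawn by distance from the gene start in kb, in the direction of transcription, with the gene body as a dark bar and 50 kb to each side as a thin line. Red triangles are the 8 sites, with area in proportion to the mean fold over input, and blue ticks are the 53 EREs with at most 1 mismatch. The 5 Igf1r sites spread from 62.8 to 246 kb into the gene, whereas EREs are present near all 10 genes.

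The Igf1r gene, which encodes the IGF1 receptor, spans chr7:67952827-68233668 on the plus strand. Its strongest site, Igf1r site 2 at chr7:68023911-68024110, had a normalised signal of 12.8, 18.5 and 13.1 in ChIP replicates 1, 2 and 3 and of 1.12 and 0.786 in inputs 1 and 2. All 3 ChIP libraries were far above both inputs. The fold over the mean input was 13.4, 19.5 and 13.7, a mean of 15.5 ± 3.41 (SD, n = 3). This site lay in intron 2 of 20, 71.2 kb from the start of the gene, and no start of any annotated transcript was closer. The mean ChIP peak was 230 bp wide between the points at 0.5 times its height. Of the 4841 sites in the genome, 416 (8.59%) had a mean fold at least as high.

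Around it in the same intron, Igf1r site 1 at chr7:68015501-68015700 had a signal of 2.19, 2.78 and 2.89 in the ChIP libraries against 0.735 and 0.584 in the inputs. The libraries did not overlap, but only ChIP replicates 2 and 3 passed the 4-fold line, with folds of 4.21 and 4.38 beside 3.33 in replicate 1. Igf1r site 3 at chr7:68041581-68041780 had 2.94, 2.52 and 2.01 in ChIP against 0.686 and 0.4 in the inputs. Here replicate 3 was the one below the line, at 3.71-fold. Igf1r site 4 at chr7:68061711-68061910 had 4.98, 4.77 and 3.38 in ChIP against 0.696 and 0.936 in the inputs, which is 6.10-, 5.84- and 4.14-fold. It was the only one of these 3 weaker intron 2 sites at which all ChIP libraries passed in the window of highest mean fold. The first of them lay 62.8 kb and the last 109 kb from the gene start.

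The fifth Igf1r site, at chr7:68198451-68198650, lay in intron 13, 246 kb from the gene start. Its signal was 2.84, 3.89 and 1.74 in ChIP against 0.639 and 0.450 in the inputs. ChIP replicate 3 was the lowest there, at 3.19-fold, below the 5.22- and 7.15-fold of replicates 1 and 2. A shorter Igf1r transcript started 3.88 kb from this site, while the nearest start of a protein-coding transcript was that of Pgpep1l, 65.7 kb away. A count of 5 or more sites was reached by 80 protein-coding genes (0.368%). Since longer neighbourhoods can hold more sites, the same count was taken over the 621 genes with a neighbourhood at least as long as that of Igf1r, of which 18 (2.9%) had 5 or more and the median had 0. Both shares rest on the 5 Igf1r sites of the main rule. That count was 4, 3 and 4 without ChIP replicates 1, 2 and 3. It was 5 without Input replicate 1 and 4 without Input replicate 2. Requiring all 3 ChIP libraries gave 3, and windows of 400 bp gave 1. The genome shares were not taken under these settings.

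The docking proteins each had a site. At Irs1 (chr1:82233101-82291416, minus strand), the site at chr1:82284091-82284290 lay in the gene's only intron, 7.23 kb from the gene start, which was also the nearest start of any transcript. Its signal was 2.39, 4.20 and 3.85 in ChIP and 0.602 and 0.386 in the inputs. Replicate 1 was the lowest ChIP library, at 4.83-fold beside 8.50- and 7.80-fold, and the mean was 7.05 ± 1.95-fold (SD, n = 3). At Irs2 (chr8:10984681-11008458, minus strand), the site at chr8:10940071-10940270 lay outside the gene, 44.5 kb past its end and 68.3 kb from its start. Its signal was 1.90, 3.07 and 3.81 in ChIP and 0.509 and 0.426 in the inputs. Replicate 1 only just passed there, at 4.06-fold, with 6.56- and 8.14-fold in the others and a mean of 6.26 ± 2.06. Irs2 was the nearest protein-coding start, but the predicted gene Gm44955 started closer, at 7.72 kb.

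For the ligand, the Igf1 site at chr10:87866501-87866700 lay 8.34 kb from the gene start (chr10:87858265-87937042, plus strand), in intron 2 of the longest coding transcript that spans it. The signal was 3.70, 3.01 and 3.38 in ChIP and 0.711 and 0.489 in the inputs. All 3 ChIP libraries passed, at 6.17-, 5.01- and 5.63-fold, with a mean of 5.61 ± 0.578 (SD, n = 3). The nearest coding start was that of another Igf1 transcript, 5.27 kb away, and the antisense transcript Igf1os started at 3.22 kb.

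**Figure D2:**
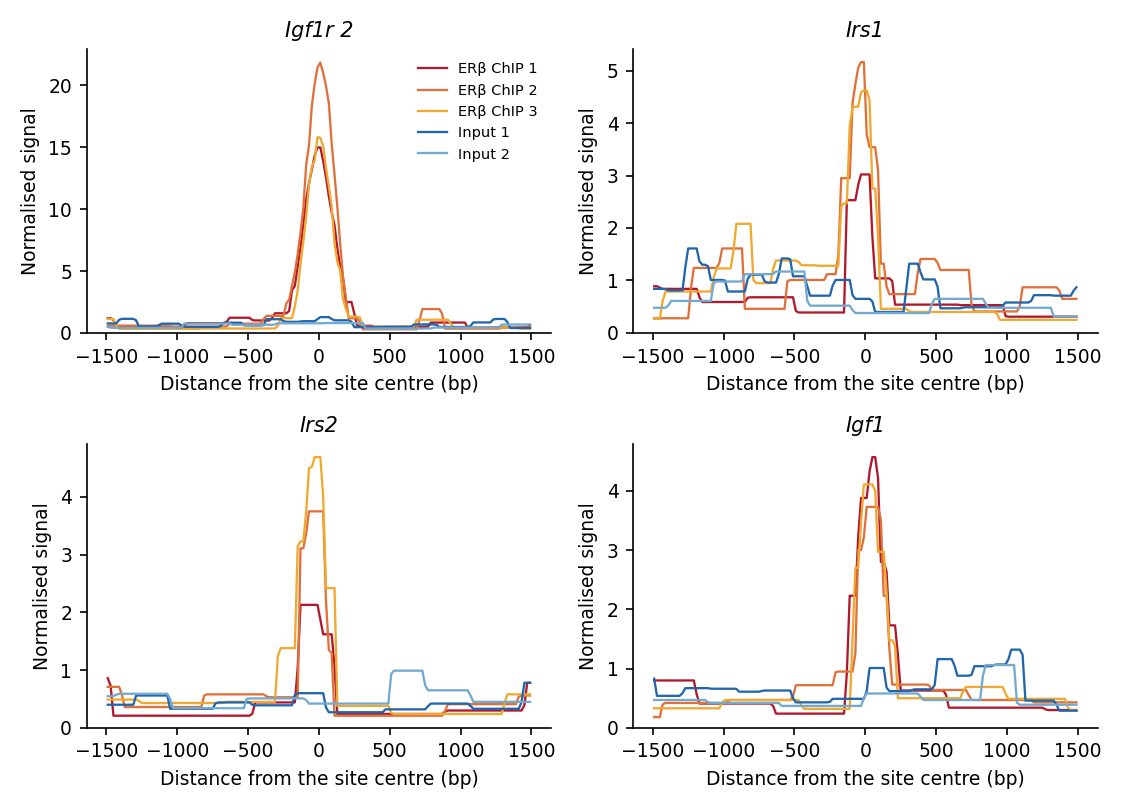
Normalised signal of the 5 libraries in 20-bp steps is plotted against the distance from the centre of 4 sites, Igf1r site 2 and the sites of Irs1, Irs2 and Igf1, in bp. The vertical axes differ between panels. The ChIP lines (red to yellow) rise at each centre and the input lines (blue) stay below the ChIP summits, while ChIP replicate 1 is the lowest ChIP line at Irs1 and Irs2 and the highest at Igf1.

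Over the 8 sites the median of the mean fold was 5.48, beside 6.23 over all sites of the genome. In 5 of the 8 (62.5%) all ChIP libraries passed in the central window, beside 66.0% of all sites. Because the sites were called on these same values, each ChIP library was also read at sites called from the remaining ChIP libraries. ChIP replicate 1 was over 4-fold at 6 of 7 such sites, replicate 2 at 6 of 6 and replicate 3 at 5 of 7, beside 74.4%, 93.5% and 87.9% of such sites over the genome. The median fold read in this way was 4.83, 6.12 and 5.63 for replicates 1, 2 and 3, beside 5.71, 7.94 and 7.52 over the genome. At Igf1r site 2 it was 13.4, 19.5 and 13.7. This reading used the same inputs as the calls. Neither input, read against the other, had a window over 4-fold in the 10 neighbourhoods, and they had 64 and 192 in the genome. The ChIP libraries, read against the mean input, had 8, 12 and 11 such places there and 4655, 7179 and 6410 in the genome.

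Track names placed ChIP replicate 1 with Input 1, and ChIP replicates 2 and 3 with Input 2. With each ChIP library read over the input of its own naming, there were again 8 sites at 4 genes, and the folds at Igf1r site 2 were 11.4, 23.6 and 16.6. The names do not say what the 2 sets share.

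**Figure D3:**
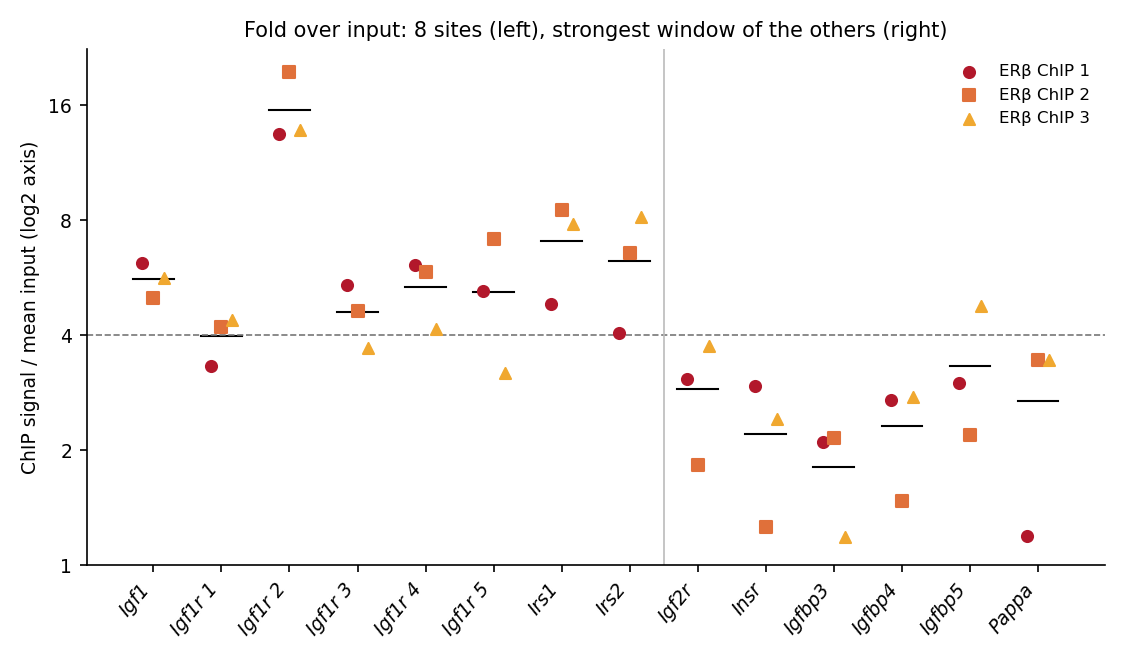
ChIP signal divided by the mean input is shown on a log2 axis for the 8 sites (left of the vertical line) and for the strongest window of the 6 genes without a site (right), with 1 point per ChIP library and a bar at their mean. The dashed line is the 4-fold threshold. Igf1r site 2 lies above all other sites in every ChIP library, and at each of the 6 other genes at least 2 of 3 libraries lie below the line.

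The 6 genes without a site are described by the window with the highest second-best fold. Pappa came closest to the threshold, at chr4:65225161-65225360 in intron 7, with 1.20-, 3.45- and 3.45-fold in ChIP replicates 1, 2 and 3. Its signal was low in all libraries, 0.44, 1.27 and 1.27 in ChIP and 0.276 and 0.25 in the inputs. Both inputs were below their genome mean there, and over the inputs as measured the folds were 1.67, 4.83 and 4.83, so that the floor set on the input decided the call. At Igf2r the strongest window, chr17:12760671-12760870 in intron 1 and 8.89 kb from the gene start, reached 3.07-, 1.83- and 3.75-fold. At Igfbp5, ChIP replicate 3 alone exceeded the line, at 4.78-fold, with 3.00- and 2.19-fold in replicates 1 and 2, at -40.2 kb from the gene start. For Igfbp4, Insr and Igfbp3 the second-best fold was 2.71, 2.42 and 2.10. Just inside the threshold, the second-best fold was 4.21 at Igf1r site 1 and 4.64 at Igf1r site 3.

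When the flanks were widened to 100 kb, 4 more sites appeared, and they added Igfbp4 and Igfbp5 to the genes with a site. The strongest, at chr11:98955491-98955690, was 46.7 ± 7.58-fold over input (SD, n = 3), with a signal of 17.9, 23.9 and 24.3 in ChIP and 0.444 and 0.5 in the inputs. It lay 85.7 kb upstream of Igfbp4 but 4.82 kb from the start of Rara, the gene of retinoic acid receptor α. Another near Rara, at chr11:98951691-98951890, was 8.81 ± 1.66-fold. The site added for Igfbp5 lay 80.9 kb upstream of it (4.68 ± 0.988-fold), and a second one for Irs1 lay 52.6 kb past its end (7.85 ± 1.04-fold).

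Another comparison, without the 4-fold rule, was made in 1-kb windows with limma on log2(signal + 0.5), with Benjamini-Hochberg adjustment over 2430645 windows. It used the same libraries that called the sites. Its p-values at windows that hold a site are therefore not independent support for that site. Of the 1959 windows in the 10 neighbourhoods, 3 were higher in ChIP than in input and 0 were lower at an adjusted p under 0.05, with 24 (1.23%) and 116 (5.92%) at an unadjusted p under 0.05, beside 1.90% and 3.33% of all windows. By adjusted p genome-wide, 0.0957% of windows were higher and 0.00267% lower. Of the windows that were higher, 2 adjoin at Igf1r site 2. The one from chr7:68024001 had a signal of 2.53, 3.50 and 2.55 in ChIP and 0.675 and 0.519 in the inputs, a log2 difference of 1.61 ± 0.21 (SE, limma adjusted p = 1.27e-05). The one from chr7:68023001 differed by 1.24 ± 0.21 (limma adjusted p = 0.00115).

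The remaining window held the Igf1 site, with 1.31, 1.31 and 1.20 in ChIP and 0.588 and 0.456 in the inputs. Its log2 difference was 0.80 ± 0.17 (SE, limma adjusted p = 0.0443). This call is near the limit, and it was lost when either input or ChIP replicate 1 or 2 was left out (limma adjusted p = 0.583, 1, 0.0788 and 0.277, in the order Input 1, Input 2, ChIP 1, ChIP 2). The log2 difference was then 0.89, 0.70, 0.78 and 0.78. With a single input left, that library was assumed to vary like the ChIP libraries. The windows of the Irs1 and Irs2 sites were 0.78 ± 0.19 and 0.56 ± 0.17 higher on the log2 scale without passing (limma adjusted p = 0.137 and 0.672). Those of Igf1r sites 1, 3, 4 and 5 differed by 0.47 to 0.71 on the log2 scale, with limma adjusted p from 0.270 to 0.897. Windows of 1 kb average a site of about 230 bp with its surroundings, and the test had 3 libraries against 2.

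At the promoters (1 kb upstream to 100 bp downstream of the gene start), none of the 10 genes differed between ChIP and input by limma at an adjusted p under 0.05. At an unadjusted p under 0.05, 0 were higher and 1, that of Pappa, was lower, beside 1.38% and 10.9% of all promoters. Without ChIP replicate 3 the promoter of Igfbp3 was lower in ChIP (log2 difference -0.46, limma adjusted p = 0.0159, beside 0.423 with all libraries), in a fit that called 13.6% of all promoters lower. Of 21064 promoters tested in the genome, 0.076% were higher and 0.0332% lower in ChIP. The Irs1 promoter had the highest values of the 10 in ChIP replicates 2 and 3, with 0.492, 1.11 and 1.48 in the ChIP libraries and 0.867 and 0.862 in the inputs. The groups overlapped, with ChIP replicate 1 below and replicates 2 and 3 above both inputs, and the log2 difference was 0.10 ± 0.25 (SE, limma adjusted p = 0.866). At Pappa, ChIP values of 0.351, 0.388 and 0.244 lay below the inputs at 0.650 and 0.562. The log2 difference was -0.42 ± 0.15 (SE, limma adjusted p = 0.243).

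At the Igf1r promoter the ChIP libraries gave 0.612, 0.938 and 1.18 and the inputs 0.970 and 0.973, a log2 difference of -0.08 ± 0.25 (SE, limma adjusted p = 0.899). At the Igf1 promoter they gave 0.391, 0.380 and 0.457 against 0.498 and 0.441 (-0.09 ± 0.15, SE, limma adjusted p = 0.798). ChIP replicate 1 was below both inputs at all 10 promoters, replicate 2 at 8 and replicate 3 at 2. Over all promoters the same held for 69.5%, 62.0% and 41.4%, so the libraries differed in their promoter signal across the genome. The part of that difference in the values of the 10 genes was not tested.

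**Figure D4:**
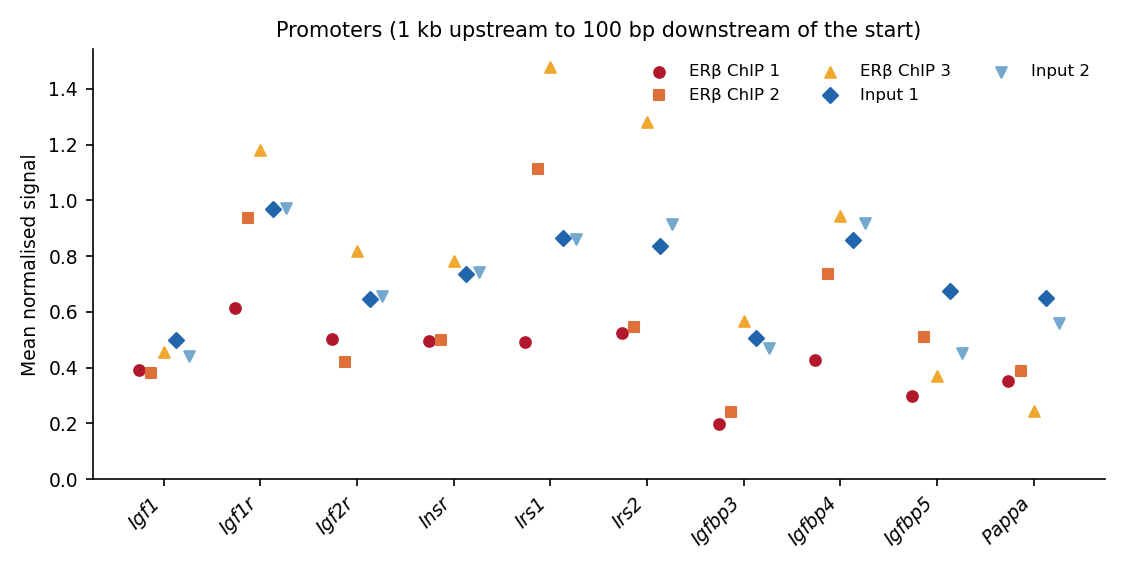
Mean normalised signal over each promoter is shown per gene and library, with ChIP replicates as circles, squares and triangles in red to yellow and inputs in blue, on a linear axis from 0. ChIP replicate 1 lies below both inputs at all 10 genes, and the highest value is that of ChIP replicate 3 at Irs1, 1.48.

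Sequence in the sites was then set beside the genome. An ERE with at most 2 mismatches was in 6 of the 8 sites, beside 68.1% of all sites and 6.68% of all 200-bp stretches of the genome. With at most 1 mismatch it was in 2 of 8, beside 33.1% and 0.529%. The Igf1 site and Igf1r site 4 held only stretches with 3 mismatches. In Igf1r site 1 the element lay at the very edge of the window, 93.5 bp from its centre, whereas in the other 5 it lay within 54.5 bp.

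The half-site AGGTCA, searched on both strands, was in Igf1r sites 1 and 2 and, in 4 copies, in the Irs2 site. It was in 58.6% of all sites and 11.1% of stretches, and it can overlap an ERE. The NR5A motif (TCAAGGTCA or CCAAGGTCA), which contains that half-site and is bound by LRH-1 and SF-1, was in none of the 8 sites, beside 7.15% of all sites. It was searched without mismatch, as were the other motifs in this paragraph, whereas the ERE was allowed up to 2. By its own motif search the study reported NR5A in a far larger share of bound sequences. The GATA motif (AGATAA or TGATAA) was in the Igf1 site and in Igf1r site 1, and is common, in 29.7% of sites and 24.1% of stretches. The FOXO motif (TGTTTAC) was in the Irs1 site, beside 4.73% of sites and 2.98% of stretches, and the AP-1 motif (TGACTCA or TGAGTCA) was in none, beside 6.65% of sites. These matches describe letters in a window and not binding by a factor.

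EREs were also read wherever they occurred, in 200 bp around each, with no call in between. The neighbourhoods held 52 EREs with 1 mismatch, at least 1 at every gene, and 1 without mismatch. Of the 52, 2 (those of Igf1r sites 2 and 3) were over 4-fold in at least 2 ChIP libraries, beside 1.91% of the 70103 such EREs in the genome. In ChIP replicates 1, 2 and 3, that of Igf1r site 2 had 13.1-, 17.9- and 12.8-fold. That of Igf1r site 3 only just passed, at 4.15-, 3.99- and 4.06-fold. The remaining EREs with 1 mismatch had a median of 0.943-fold, close to input. For EREs without mismatch the genome share was 12.4% of 2357. The 1 near these genes lay upstream of Igf1, at chr10:87841061-87841073, and had 1.28-, 0.808- and 0.642-fold in ChIP replicates 1, 2 and 3, a mean of 0.912 ± 0.333 (SD, n = 3). The highest ERE below the line, with 1 mismatch, was in Igf2r at chr17:12760782-12760794, within the strongest window of that gene, at 3.00-, 1.90- and 3.76-fold. Both are shown because they match the ERE at least as well as the stretches printed above from occupied windows.
Igf1 ERE without mismatch: ttcatacaGGTCACCTTGACCttgtccca
Igf2r ERE with 1 mismatch: aggtctgaGGTCAGGGTGACAcaggcgat

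**Figure D5:**
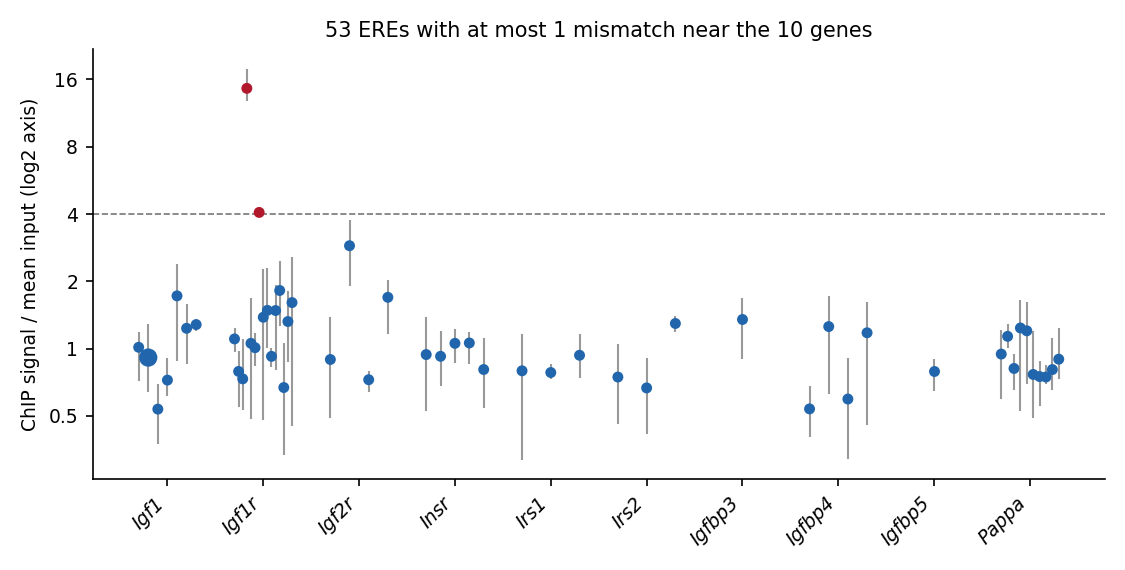
Each point is 1 of the 53 EREs with at most 1 mismatch, placed by gene and ordered by position along it, at the mean of the 3 ChIP folds over input (log2 axis), with a line from the lowest to the highest ChIP library. Red marks the 2 that passed, both in Igf1r, the larger point at Igf1 is the ERE without mismatch, and the dashed line is at 4-fold. The other EREs lie below 3-fold on average.

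Of 49 further genes of the pathway, 23 (46.9%) had a site in the same neighbourhood, beside the 27.5% of all protein-coding genes. The list was drawn up with earlier results of these data known, so these shares do not test the pathway. Among the ligands Igf2, Ins1 and Ins2 none of 3 did. The binding protein genes Igfbp1, Igfbp2, Igfbp6 and Igfbp7 had no site. Igfals, listed with them but encoding the acid-labile subunit, had one (11.7 ± 5.94-fold, SD, n = 3), and the nearest coding start to that site was that of Hagh. The pappalysin paralogue Pappa2 had a site 77.9 kb into the gene (7.95 ± 1.63-fold), unlike Pappa itself. Htra1, a serine protease that cleaves binding proteins, had one at -0.221 kb from its start (8.20 ± 2.56-fold).

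Downstream of the docking proteins, the strongest site of the PI3K catalytic subunit gene Pik3cd reached 14.7 ± 4.05-fold and that of the regulatory subunit gene Pik3r1 14.3 ± 2.63-fold (SD, n = 3), each with its own start as the nearest coding start. Akt1 had a site at -4.00 kb from its start, at 10.9 ± 3.79-fold, but Zbtb42 had the nearest coding start. Below AKT, 5 of 8 genes had one, among them Foxo1 (5.11 ± 0.331-fold) and Foxo3 (4.07 ± 0.972-fold), which encode transcription factors that AKT phosphorylates. In growth hormone signalling 4 of 6 genes did, and the adjoining Stat5a and Stat5b shared the strongest of theirs, at 13.1 ± 1.69-fold. Kl, listed among other receptors and regulators, had a site at its start (0.193 kb, 11.7 ± 4.04-fold). For Irs3, Grb2, Shc1, Pik3r2, Gsk3b, Tsc1 and Socs2 too, the coding start nearest to the strongest site was that of another gene. Neighbouring genes share sites, so the 23 genes rested on 36 distinct sites, and gene lengths differ between the list and the genome.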

How the data were processed

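ChIP-seq tracks of 3 ERβ ChIP and 2 input libraries were analysed, grouped by sample title. Per the study's methods and the submitters' processing notes, the authors aligned reads to mm10 with STAR, kept uniquely mapped reads and made tracks with HOMER. Versions, fragment length and treatment of duplicates are not given in the sources used here. The deposited values are signal (coverage) that the authors scaled to a common total per library, with no pooling. Totals were 928 to 948 M signal units. The median segment was 481 to 486 bp in ChIP, 269 bp in Input 1 and 519 bp in Input 2. Why the segments of Input 1 were shorter was not tested, and the inputs may differ in read depth. The tracks keep no read counts, and the aligned read totals that the study gives were not used here, so the spread between replicates sets the precision. Per the study's methods each ChIP replicate was a pool of its own mice, and which input belongs to which replicate is not stated. The p-values measure the spread between these libraries only.

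Signal was averaged in 200-bp windows at steps of 10 bp on the autosomes and X. The mean of the 2 inputs was set to at least its genome mean, windows over 4-fold in at least 2 ChIP libraries were merged within 200 bp, and the window of highest mean fold gave the site. Folds at sites describe the rule and were not tested. Windows of 1 kb and promoters with a mean signal of at least 0.1 were tested with limma 3.58.1 (R 4.3.3, trend) on log2(signal + 0.5), a scale that understates changes at low signal. Site calling and limma were also run on simulated data, as a check of the code. For site calling, the planted sites carried no noise and lay well above the 4-fold line. That run therefore does not cover sites near the threshold. Genes were from GENCODE, and sequences from RefSeq GRCm38.p6. All 10 genes, every site and, where none was called, the strongest window are named. The genes, the pathway list and the tests were chosen with earlier results of these data known, and the half-site motif and the track-name alternatives were added after the files were seen.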

Additional observations from a re-analysis of the deposited data

How the results depend on the processing

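The sites changed with the threshold more than with the libraries. Over 8-fold, 1 site at 1 gene remained, Igf1r site 2, which was found under all 14 alternatives. Windows of 400 bp gave 4 sites, 1 at each of the same 4 genes. Leaving out 1 library gave 6 to 8 sites at 4 genes, with 3 to 5 of them at Igf1r and 1 each at Igf1, Irs1 and Irs2. Igf1r sites 1 and 5 were found under 8 and 9 of the 14 alternatives, the fewest of the 8 sites. The other alternatives gave 6 to 12 sites at 3 to 6 genes, and Irs2 lost its site when only the gene body was read. With an input floor of 0.5 times the genome mean, Pappa gained 1 site. An ERE with at most 1 mismatch was in 2 of the 8 sites and one without mismatch in 0.

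By limma, leaving out 1 ChIP library gave 1 to 4 windows higher (0.051% to 0.204%) and 0 to 1 lower (0% to 0.051%) among the 10 genes. Over all windows, the same fits called 0.0519% to 0.105% higher and 0.000411% to 0.0281% lower. The lowest count of higher windows was without ChIP replicate 2, for the 10 genes and for the genome. The Igf1r window from chr7:68024001 passed in all alternatives (limma adjusted p from 1.38e-09 to 0.00428). The adjoining one missed without ChIP replicate 2 and without Input replicate 2 (limma adjusted p = 0.0777 and 0.0673). The Igf1 window was also lost at a pseudocount of 1 and with no filter (limma adjusted p = 0.0867 and 0.0658). At promoters, 0 to 1 were lower without 1 library, that of Igfbp3 without ChIP replicate 3 (log2 difference -0.46, limma adjusted p = 0.0159), a fit in which 2874 of 21064 promoters (13.6%) were lower, and 0 were higher in any alternative. Without 1 library, the log2 difference of the Irs1 promoter ran from -0.11 (without ChIP replicate 3) to 0.39 and that of Igf1r from -0.22 to 0.079 (without ChIP replicate 1), none of them passing. The causes were not tested.

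Replicate numbers occur in both groups but nothing states that they pair libraries, and only 2 numbers are shared. Deviations from the group means correlated at 0.036 and -0.011 for numbers 1 and 2. A fit with the number as a replicate block gave 6 windows higher and 4 lower, and 0 promoters higher and 1 lower, with the Irs1 promoter at -0.11. The same fit called 3427 windows higher (0.141%) and 3207 lower (0.132%) and 1099 promoters lower (5.22%) in the genome. A separate fit, with the track naming and without the replicate number, gave 3 windows higher (0.153%), beside 0.0926% of all windows. The tracks hold no counts, so no counting error could be given for a site within 1 library.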
